A study of Ovis aries with 3 samples.

Results

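Amino acid and hexose carriers are the membrane proteins of 9 solute carrier (SLC) families, SLC1, SLC2, SLC3, SLC5, SLC6, SLC7, SLC36, SLC38 and SLC43. Every row of the deposited table whose symbol belongs to these families was taken, which gave 70 genes out of 25197 rows, each symbol with a single row. The choice used names and no measured value, though earlier results of these data were known when it was made. The RNA came from extracellular vesicles, small lipid-bilayer particles shed by cells, of sheep (Ovis aries) conceptuses of day 14 of pregnancy, a conceptus being the embryo with its extraembryonic membranes. All 3 libraries belonged to 1 group with no control. Conceptuses were cultured whole and singly for 24 h in DMEM/F-12 with 10% exosome-depleted fetal bovine serum, glutamine, insulin, pyruvate and nonessential amino acids under 5% O2. The labels give no strain, age or treatment of the ewes and do not say which animal a library came from, so differences among libraries, and the p-values based on them, may reflect technical variation.

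Glucose enters cells down its gradient through the SLC2 carriers, or with sodium through some SLC5 cotransporters. Amino acids use several systems, among them the sodium-coupled SLC1, SLC6 and SLC38 carriers, the proton-coupled SLC36 carriers, the cationic carriers of SLC7, and pairs of an SLC7 light chain with an SLC3 heavy chain. The elongating ruminant conceptus takes up glucose, arginine, leucine and glutamine from the uterine lumen, and arginine and leucine are known as activators of the growth kinase complex mTORC1. Values were taken as RPKM-type, that is, reads scaled for gene length and library depth. They are listed to 1 decimal, so that a listed 0 stands for any value under 0.05.

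Carrier transcripts were at or near the floor of the measurement. No carrier reached a value of 1 in all 3 libraries, the rule used here for detection, whereas 3.89% of all rows did. Without library 3, SLC2A1 and SLC7A9 met the rule in the remaining libraries (2 of 70, against 7.29% of all rows), without library 2 SLC7A1 did (1 of 70, against 4.45%), and without library 1 none did (against 5.06%). A value of 1 in at least 2 libraries was reached by 3 carriers, SLC2A1, SLC7A9 and SLC7A1 (4.29%, against 9.02% of all rows). In at least 1 library 4 carriers reached it (5.71%, against 17.9%), SLC2A12 being the fourth. Of the others, 10 were listed at 0 in every library (14.3%, against 21.6% of all rows and 11.7% of the rows with a gene symbol that are not catalogued small RNAs). A further 41 never exceeded 0.2, 9 peaked at 0.3 to 0.5 and 6 at 0.6 to 0.9. Shares of all rows in these ranges were not computed, here or for the family counts below. Such counts therefore do not set carriers apart from other genes. The median carrier stood at 0.1, 0.1 and 0.05 in libraries 1, 2 and 3, and the median of all rows at 0.1 in each. Together the 70 genes, 0.278% of the rows, held 0.0995%, 0.0534% and 0.0629% of all the signal in libraries 1, 2 and 3.

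**Figure D1:**
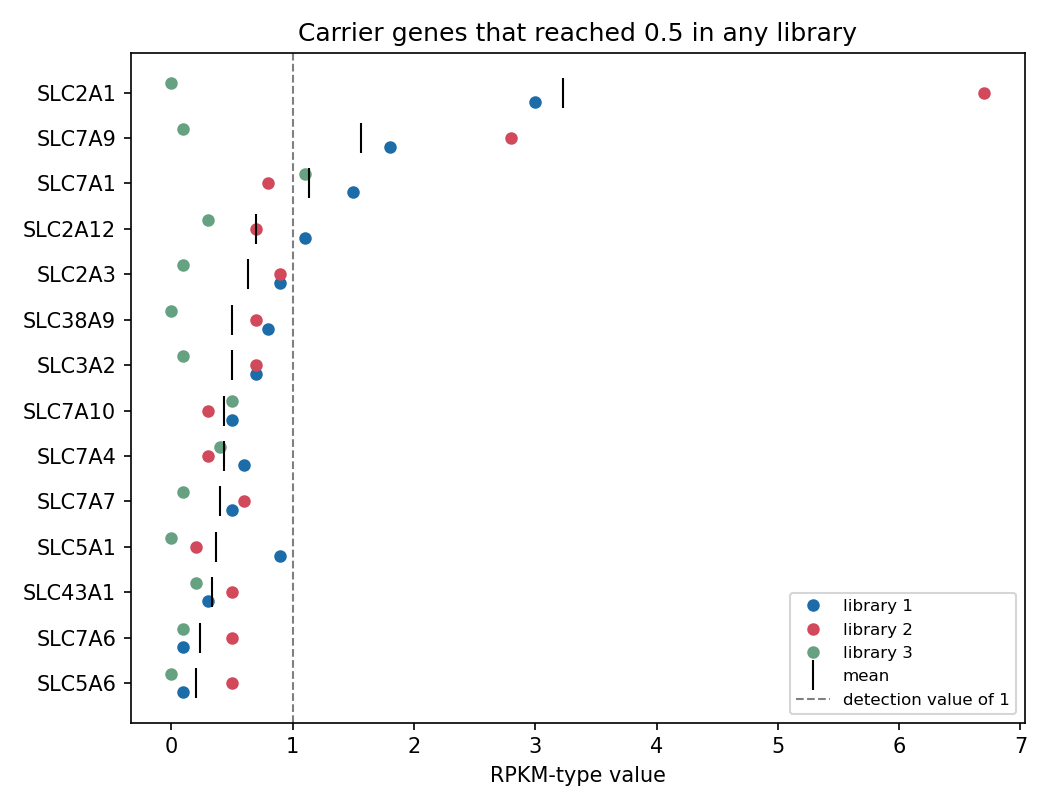
RPKM-type values (x axis) of the 14 carrier genes that reached 0.5 in any library (y axis), with a point per library, a bar at the mean and a dashed line at the detection value of 1. SLC2A1 stands at 3 and 6.7 in libraries 1 and 2 and at 0 in library 3, and no gene lies right of the line in all 3 libraries.

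The libraries differed in ways that touch these values. Their summed values were 17480.7, 40060.3 and 9531.8, and the share of rows listed at 0 was 39.6%, 34.1% and 48.0%. Of the 70 carriers, 24, 20 and 35 were listed at 0 in libraries 1, 2 and 3. Depth estimated from the copies of the U6 small nuclear RNA was, against library 2, 1.28 times in library 1 and 1.21 times in library 3. For a transcript 20 times as long as U6, taken as an example because transcript lengths were not used here, a value of 1 would stand for 47.3, 36.9 and 44.5 reads, and a listed 0 for at most 2, 1 and 2 reads. Genes of olfactory receptors, expected to be silent in these cells, served as background, and the 99th percentile of their 476 rows was 1.45, 1.02 and 1.75. By that measure 3, 2 and 0 carriers stood above background in libraries 1, 2 and 3, and 2 carriers did so in at least 2 libraries (2.86%, against 6.06% of all rows). The trophectoderm, the outer epithelium of the conceptus, was marked by the keratin KRT8 at 26.3, 138.9 and 27.3. Another marker was the interferon tau gene TP-1 at 6.7, 26.2 and 4.7. None of the other 7 genes of the trophectoderm list that had a row reached 1 in 2 libraries. Of its regulators, GATA3 stood at 0.9, 0.9 and 3, ELF5 at 1, 0.2 and 0.8, CDX2 at 0.5, 0.2 and 0, and GATA2 at 0 in each library.

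SLC2A1, the facilitative glucose carrier of most tissues and of the placenta, was the highest carrier. It stood at 3, 6.7 and 0 in libraries 1, 2 and 3, with a mean of 3.23 ± 3.36 (SD, n = 3). It was present in libraries 1 and 2, where it exceeded 97.4% and 97.3% of all rows, and it was listed at 0 in library 3. With the libraries scaled to the same summed value it stood at 3.84, 3.74 and 0, so that libraries 1 and 2 nearly coincided. In a transcript 20 times as long as U6 the unscaled values would be 142 and 247 reads in libraries 1 and 2. Over the 3 libraries the SD was larger than the mean.

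Other facilitative carriers were lower. SLC2A12, a carrier of glucose, stood at 1.1, 0.7 and 0.3 (mean 0.70 ± 0.40, SD, n = 3). SLC2A3, the high-affinity glucose carrier of trophoblast and neurons, stood at 0.9, 0.9 and 0.1 (mean 0.633 ± 0.462, SD, n = 3). Both were below the olfactory receptor percentile in every library. The insulin-responsive carrier SLC2A4 was listed at 0, 0 and 0.1, and the intracellular carrier SLC2A8 at 0.1, 0 and 0. Of the 10 SLC2 genes, 7 never exceeded 0.2. SLC2A1 exceeded SLC2A3 by 1.07 and 2.02 on the log2(value + 1) scale in libraries 1 and 2 and was 0.14 lower in library 3 (difference -0.14), for a mean difference of 0.99 ± 1.08 (SD, n = 3; exact sign-flip permutation p = 0.5, two-sided; 0.625 with Benjamini-Hochberg adjustment over 5 carrier pairs). Without library 2 the mean difference was 0.47, and without library 3 it was 1.55. With 3 libraries this test cannot go below 0.25, and the scale understates differences of low genes.

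Sodium-coupled sugar carriers were at the floor in library 3. SLC5A1, the sodium-glucose cotransporter of gut and kidney epithelium, stood at 0.9, 0.2 and 0 (mean 0.367 ± 0.473, SD, n = 3), and it led the 10 genes of its family. SLC5A11, which carries myo-inositol, stood at 0.4, 0.3 and 0. The multivitamin carrier SLC5A6 reached 0.5 in library 2 and was at 0.1 and 0 in libraries 1 and 3. The SLC2A1 minus SLC5A1 difference was 1.25 ± 1.35 on the log2(value + 1) scale, above 0 in 2 of 3 libraries (SD, n = 3; exact sign-flip permutation p = 0.5; adjusted 0.625). It was 0 in library 3, where neither gene had a listed value, and the mean was 0.54 without library 2. With a pseudocount of 0.1 in place of 1 it was 2.04.

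**Figure D2:**
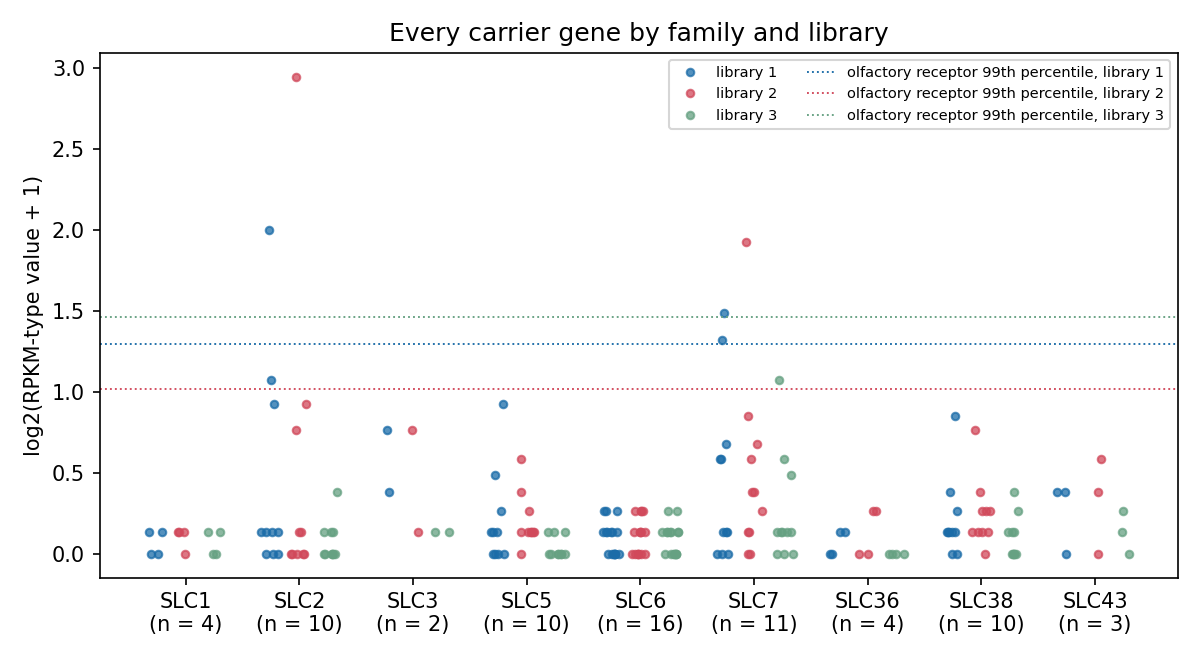
Every one of the 70 carrier genes as log2(RPKM-type value + 1) (y axis), by family (x axis, with the number of genes) and library (colour), with dotted lines at the 99th percentile of olfactory receptor rows in each library. Points above the line of their own library belong to SLC2 and SLC7, and the 16 SLC6 genes all lie at a value of 0.2 or less.

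Among amino acid carriers the SLC7 family held the highest values. SLC7A1, the main carrier of arginine and lysine into most cells, stood at 1.5, 0.8 and 1.1, with a mean of 1.13 ± 0.35 (SD, n = 3). Of the 3 leading carriers it varied least, and it was the highest carrier of library 3 and the only one of the 70 carriers at 0.5 or more in every library (1.43%, against 7.56% of all rows). It exceeded the olfactory receptor percentile in library 1 alone, and the deposited table describes its row as an uncharacterized protein. Scaled to the same summed value it stood at 1.92, 0.447 and 2.58, which is more uneven than the unscaled values. SLC7A2, another cationic carrier, was listed at 0 in all 3 libraries, so SLC7A1 could not stand below it. The SLC7A1 minus SLC7A2 difference was 1.32, 0.85 and 1.07 on the log2(value + 1) scale, a mean of 1.08 ± 0.24, above 0 in 3 of 3 libraries (SD, n = 3; p = 0.25, the smallest the exact sign-flip permutation test allows; adjusted 0.625). With a pseudocount of 0.1 the mean was 3.58, since SLC7A2 is at 0.

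SLC7A9, the light chain of an apical exchanger of cystine and dibasic amino acids, stood at 1.8, 2.8 and 0.1, with a mean of 1.57 ± 1.37 (SD, n = 3). Like SLC2A1 it was above the olfactory receptor percentile in libraries 1 and 2 and at the floor in library 3. SLC3A1, the heavy chain with which it pairs, was listed at 0.3, 0.1 and 0.1. These chains were set side by side after their values were seen, and their difference was not tested.

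The heavy chain SLC3A2, which carries the light chains of several exchangers to the surface, stood at 0.7, 0.7 and 0.1 (mean 0.50 ± 0.346, SD, n = 3). SLC7A5, its light chain for leucine and other large neutral amino acids, was listed at 0 in every library, so SLC3A2 could not stand below it. The SLC3A2 minus SLC7A5 difference was 0.56 ± 0.36 on the log2(value + 1) scale, above 0 in 3 of 3 libraries (SD, n = 3; exact sign-flip permutation p = 0.25; adjusted 0.625), and 2.33 with a pseudocount of 0.1. The other light chains were spread over the same low range. SLC7A7 stood at 0.5, 0.6 and 0.1 and SLC7A6 at 0.1, 0.5 and 0.1, both exchangers of cationic against neutral amino acids. SLC7A8, another light chain for large neutral amino acids, was at 0, 0.2 and 0.1. SLC7A10, a carrier of small neutral amino acids, had even values of 0.5, 0.3 and 0.5. Of the 11 SLC7 genes, 6 reached 0.5 in some library.

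Sodium-coupled carriers of glutamine and other neutral amino acids were near the floor. SLC38A9, the lysosomal arginine sensor of mTORC1, led its family at 0.8, 0.7 and 0 (mean 0.50 ± 0.436, SD, n = 3), and 7 of the 10 SLC38 genes never exceeded 0.2. SLC38A1 stood at 0.1, 0.2 and 0.1 and SLC38A2 at 0.1, 0.2 and 0, both carriers of glutamine and small neutral amino acids. SLC38A4 reached 0.3 in library 3 and was at 0.1 in libraries 1 and 2, and SLC38A6 was listed at 0, 0.2 and 0. SLC1A5, an exchanger of glutamine, was at 0.1, 0 and 0, and SLC1A4, an exchanger of alanine, serine and cysteine, at 0, 0.1 and 0.1. None of the 4 genes listed under an SLC1 symbol exceeded 0.1, and the glutamate carrier SLC1A6, at 0.1 in each library, led them. Another row, EAAT1, which the table describes as SLC1A3 and which the choice by symbol leaves out, stood at 0.5, 0.5 and 0.7. SLC1A5 and SLC38A2 were both too close to the floor to be ranked, with a difference of -0.09 ± 0.15 on the log2(value + 1) scale (SD, n = 3; exact sign-flip permutation p = 1 before and after adjustment).

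The SLC6, SLC36 and SLC43 families held no value above 0.5. In SLC6 the neutral amino acid carriers SLC6A15 and SLC6A17 led, at 0.2 in each library, and the epithelial carriers SLC6A14 and SLC6A19 were listed at 0 throughout. SLC36A1, a proton-coupled carrier of small amino acids in lysosomes, led SLC36 at 0.1, 0.2 and 0. SLC43A1, a carrier of large neutral amino acids, led its family at 0.3, 0.5 and 0.2, and the related SLC43A2 was listed at 0 in all 3 libraries. The deposited table runs in falling order of the mean, and SLC6A14, SLC7A2, SLC7A5 and SLC43A2 stand in it above rows with a listed value, so a listed 0 does not show that a gene had no reads.

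Hexose carriers were set against amino acid carriers within each library. The 13 hexose carriers, 8 of SLC2 and 5 of SLC5, summed to 6.3, 9 and 0.8, and the 42 amino acid carriers to 9.8, 10.6 and 4.6. The remaining 15 genes carry inositol, urate, vitamins, choline, amines or osmolytes and summed to 1.3, 1.8 and 0.6. The ratio of hexose to amino acid carriers was 0.643, 0.849 and 0.174, a mean of 0.555 ± 0.346 (SD, n = 3). The ratio was thus below 1 in each library, with over 3 times as many genes on the amino acid side. SLC2A1 alone held much of the hexose sum: without it the ratio was 0.337, 0.217 and 0.174. When only values of 1 or more were summed the ratio turned, to 1.24, 2.39 and 0. Medians did not separate the groups, at 0.1, 0.1 and 0 for hexose carriers and 0.1 in each library for amino acid carriers.

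SLC2A1 and SLC7A9, but not SLC7A1, followed the order of the libraries by summed value, highest in library 2 and lowest in library 3. That order was not particular to them, though other genes, KRT8 and GATA3 among them, did not follow it. The glycolytic enzyme GAPDH, at 71.7, 182.4 and 49.5, and the mitochondrial carrier SLC25A3, at 6.8, 19.8 and 3.1, followed it as well. Of 11 marker genes of the maternal uterine epithelium, 8 had a row of that name (CST3, SPP1 and CTSL1 did not). Of these 8, 4 were detected, against 3.89% of all rows. These were LGALS15, CST6, FXYD4 and IGFBP1, and each followed the order too. Of the others, GRP stood at 0.4, 3.2 and 1.3, and MUC1, PGR and STC1 never exceeded 0.5. The 8 genes summed to 60.8, 170.8 and 11.4 in libraries 1, 2 and 3, with no member at 0 in all 3. Of 12 trophectoderm genes, 9 had a row of that name (KRT18, KRT19 and IFNT did not). These 9 genes, with 2 detected, summed to 35.7, 167.3 and 36.4. Most of that sum was KRT8 alone, at 26.3, 138.9 and 27.3, so its likeness in libraries 1 and 3 rests on 1 gene. TP-1, the other detected gene, was lower in library 3 (4.7) than in library 1 (6.7), and GATA3 was higher (3 against 0.9). SLC2A1 and SLC7A9 did not reach a value above 0.1 in library 3. Of 9 leukocyte and 5 erythroid genes none was detected, against 3.89% of all rows, and lists this short cannot show absence at such a share. They summed to 2.6, 6.2 and 4.9 and to 1.1, 1.4 and 0.8. The leukocyte genes AIF1, at 0.3, 2.8 and 4.1, and CD74, at 1.5, 1.3 and 0.1, reached 1 in 2 libraries. Whether uterine RNA was present was not tested, nor was its part, or that of the lower summed value, in the carrier values. In such bulk RNA, vesicles from fewer cells of a type and less RNA per vesicle cannot be told apart.

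Carriers were compared with the other SLC genes of the table. Of 247 such genes 9 were detected (3.64%, against 3.89% of all rows and 0 of the 70 carriers), and without library 3 the count was 14 (5.67%, against 7.29% of all rows). Of these 9, 5 belong to SLC25, the carriers of the inner mitochondrial membrane, where 5 of 41 genes were detected (12.2%). They were led by the phosphate carrier SLC25A3 at 6.8, 19.8 and 3.1. Outside SLC25 the detected share was 1.94% (4 of 206). Genes of olfactory receptors met the same rule in 0.63% of cases. The detected share of the 70 carriers was thus the lowest of these sets in this description, in which a single detected gene would have made a share above that of the olfactory receptors.

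**Figure D3:**
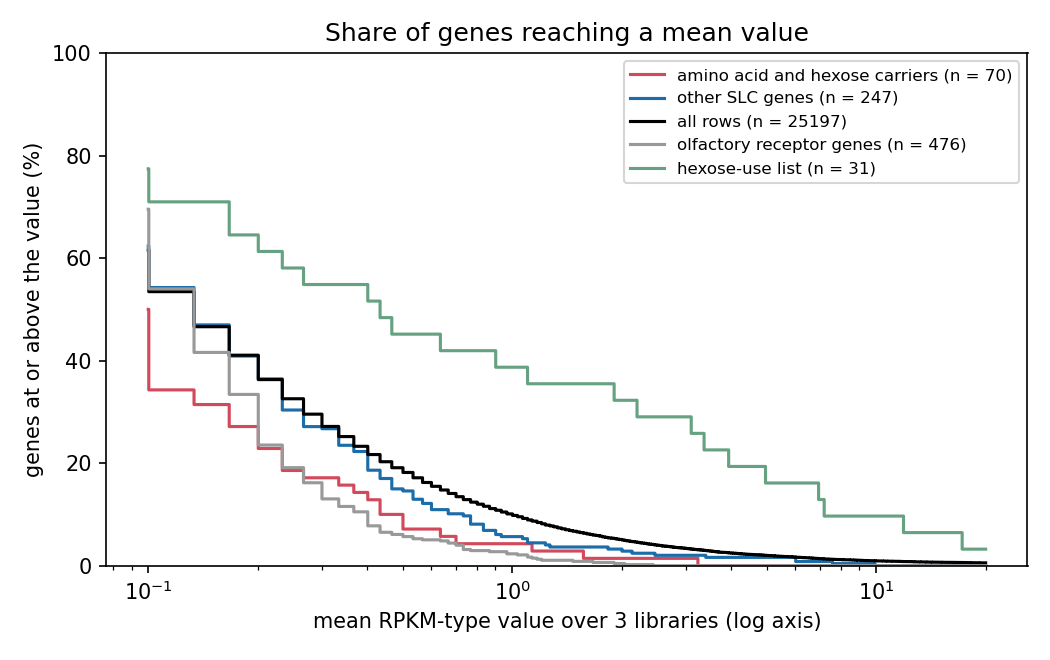
Share of genes (y axis, %) whose mean RPKM-type value over the 3 libraries was at or above the value on the x axis (log axis), for the 70 carriers, 247 other SLC genes, all 25197 rows, 476 olfactory receptor genes and the 31 genes of hexose use. On the plotted axis, which starts at a mean of 0.1, the curve of the carriers lies below that of all rows and ends at 3.23, the mean of SLC2A1.

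Genes that act on the carried hexoses gave higher values than the carriers. Of 31 genes of glycolysis, the pentose phosphate path and lactate export, 7 were detected (22.6%, against 3.89% of all rows). The glycolytic enzymes GAPDH (71.7, 182.4 and 49.5), TPI1 (12.3, 35.1 and 4.2) and LDHA (8.7, 22.7 and 4.2) led the list. In library 3, where SLC2A1 was listed at 0, all of these were present. Not every gene of the list was: the glycolytic enzyme GPI stood at 3.3, 8.5 and 0. GAPDH averaged 101.2 ± 71.2 (SD, n = 3), and reads of processed copies of such genes may be divided among rows.

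Genes of arginine and polyamine metabolism were detected in 4 of 22 cases (18.2%, against 3.89% of all rows). All 4 belong to polyamine metabolism. The ornithine decarboxylase inhibitor antizyme, OAZ1, stood at 23.1, 73.5 and 11.8, the polyamine acetyltransferase SAT1 at 28.7, 60 and 8.2, and the spermidine synthase SRM at 4.9, 10.5 and 3.3. ODC1, the decarboxylase that makes putrescine from ornithine, is the remaining one, at 2.9, 6.8 and 6.7. GCH1, which starts the synthesis of the cofactor of nitric oxide synthases, was high in library 2 alone, at 0.2, 14.3 and 0.1.

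Glutamine, serine and transaminase genes gave 1 detected gene of 17 (5.88%, against 3.89% of all rows), the mitochondrial aspartate transaminase GOT2 at 2.7, 8.8 and 2.5. Its cytosolic counterpart GOT1 (0.1, 1.6 and 1.9) and the serine hydroxymethyltransferase SHMT2 (0.2, 1.4 and 1.8) were lowest in library 1, and without library 1 or without library 3 the count was 3 of 17, where the share of all rows was 5.06% and 7.29%. Of 31 genes of mTORC1 and its amino acid sensing, 1 was detected (3.23%, near the background of 3.89%), the stress-response factor ATF4 at 4.9, 16.1 and 5.3. The mTORC1 activator RHEB (8.8, 18.7 and 0.1) and the cap-binding factor EIF4E (3.4, 11.4 and 0.1) were at the floor in library 3, as SLC2A1 and SLC7A9 were. Without library 3 the mTORC1 count was 6 of 31 (against 7.29% of all rows), and without library 1 it was 3 of 31 (against 5.06%).

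**Figure D4:**
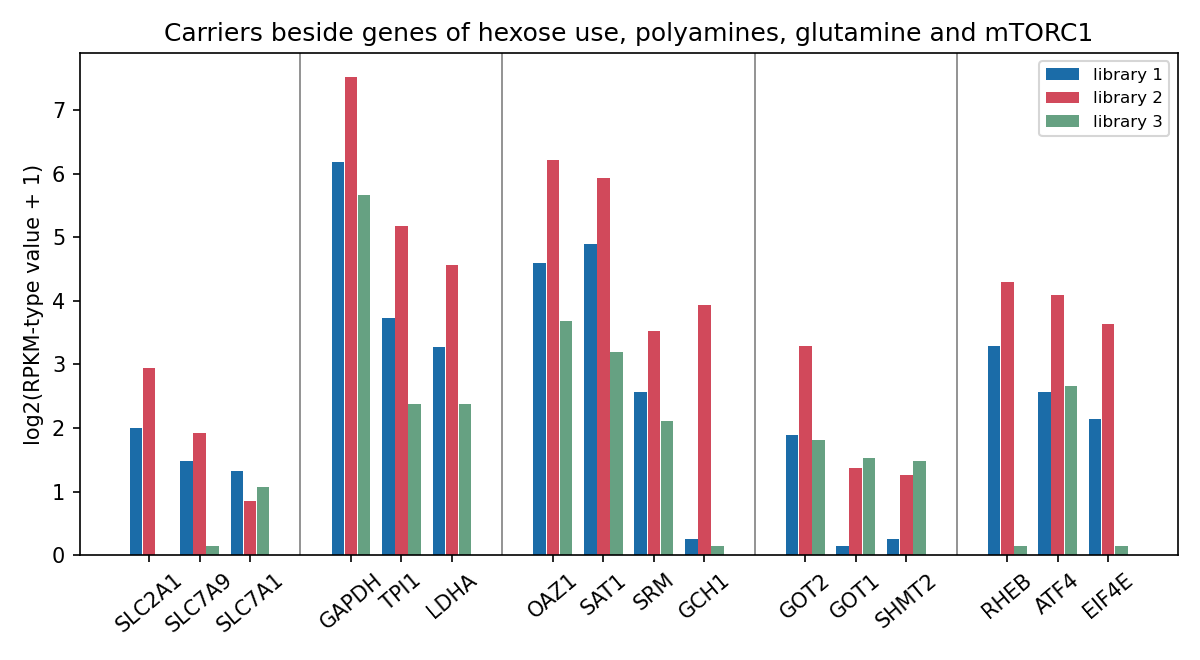
Bars give log2(RPKM-type value + 1) (y axis) in each library for the 3 carriers that reached 1 in 2 libraries and, right of each grey line, for the leading genes of hexose use, polyamine, glutamine and mTORC1 lists (x axis). SLC2A1, SLC7A9, RHEB and EIF4E are at 0.1 or less in library 3, where GAPDH stands at 49.5 and ATF4 at 5.3.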

How the data were processed

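RNA sequencing of 3 libraries was analysed: vesicles precipitated from filtered medium, total RNA (5 ng), SMART-Seq v4 libraries, which prime on poly(A) tails, and 50 bp paired-end sequencing, per the labels' protocols. The authors deposited a table of RPKM values per gene and library, taken as reads they had scaled for gene length and depth, with their mean. That the deposited values are RPKM was assumed, because no unit is named and FPKM would look alike. The scaling for gene length was not tested, since transcript lengths were not used here. Per the submitters' processing notes, the genome was Oar_v3.1. Which aligner, counter and annotation were used is not given in the sources used here. Columns were matched to samples by title, and library numbers follow the sample order.

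Symbols are those of the table; a RefSeq sheep gene table (ARS-UI_Ramb_v3.0) named 69 of the 70 carriers, shared 0 Ensembl identifiers with it, and gave no coordinates because its build differs. Sequences were not used here. Rows of that name existed for 31 of 38 hexose-use symbols (not ENO1 or PGAM1) and 22 of 26 arginine and polyamine symbols. They existed for 17 of 19 glutamine and serine, 31 of 32 mTORC1 and 5 of 7 erythroid symbols. Detection required at least 1 in every library. Levels used log2(value + 1). Single-gene pairs were compared within libraries by an exact two-sided sign-flip permutation test, adjusted over 5 pairs. The value of 1 read in U6 was estimated at 0.423, 0.542 and 0.449 (1012 rows; 95.4%, 94.8% and 94.2% of the 260, 212 and 172 low values used lay within 0.1 of a whole multiple). Whole reads could not be recovered for other genes, so no count model was fitted and no interval for counting error was given. The steps were tested on simulated data. Python 3.11.15, numpy 2.4.6 and pandas 2.3.3 were used.

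The members, lists, pairs and most alternatives were chosen with earlier results of these data known. Named genes were carriers at 1 or more in 2 or 3 libraries, carriers known from the sheep conceptus (24 of 29 symbols; SLC2A5, SLC1A1, SLC1A2, SLC1A3 and SLC7A3 were not analysed here under those names), the leading gene of each family, and of each pathway list the 3 highest means and any undetected gene at 10 or more in a library. SLC2A12, SLC5A6, SLC7A10, ODC1, GPI, EAAT1, GATA3, ELF5, CDX2 and GATA2 were added after their values were seen. Alternatives were other detection values, pseudocounts, scaling, a filter on the mean, and leaving out each library.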

Additional observations from a re-analysis of the deposited data

How the results depend on the processing

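None of the 30 alternative values for the 5 carrier pairs reversed a difference, and none could pass a test with 3 libraries. Much of that outcome was fixed in advance and is no support. SLC7A5 and SLC7A2 were listed at 0 in every library, so their pairs could not reverse. A pseudocount or scaling cannot change a sign within a library. Their sizes did move: with a pseudocount of 0.1 the 5 differences were 1.13, 2.04, 2.33, 3.58 and -0.53 (SLC2A1 minus SLC2A3, SLC2A1 minus SLC5A1, SLC3A2 minus SLC7A5, SLC7A1 minus SLC7A2 and SLC1A5 minus SLC38A2), and with a library left out they ranged from 0.47 to 1.55, 0.54 to 1.88, 0.45 to 0.77, 0.96 to 1.20 and -0.13 to 0. The count of detected carriers was 1 at a detection value of 0.5 and ranged from 0 to 2 with a library left out; for hexose carriers that range was 0 to 1, and for amino acid carriers it was 0 to 1, with 1 at a detection value of 0.5. No carrier was detected at a value of 2, with the libraries scaled to the same summed value, or above the olfactory receptor percentile of each library. That last alternative was chosen after the data were seen. Of all rows, 7.56% were detected at 0.5, and 4.45% to 7.29% with a library left out. Shares of all rows were not computed at a value of 2, with scaled libraries or above that percentile. Counts under those settings, of carriers or of other lists, cannot be set against a background. Other SLC genes gave 3 at a detection value of 2 and 9 to 14 with a library left out. At a detection value of 0.5, the hexose-use list gave 11 and the mTORC1 list 3. With a library left out the glutamine and serine list gave 1 to 3 and the mTORC1 list 1 to 6, and with scaled libraries the mTORC1 list gave 2. The median log2(value + 1) of carriers minus that of all rows, -0.02, became -0.17 with a pseudocount of 0.1 and -0.32 among genes with a mean of 0.5 or more. The hexose minus amino acid median, -0.05, became -0.33 with a pseudocount of 0.1 and 0.035 among genes with a mean of 0.5 or more. The ratio of summed hexose to amino acid values was 1.21 over values of 1 or more. Fewer genes entered under the filters; the other causes were not tested. No samples could be paired between groups because there was only 1 group, and the pairs tested were genes within a library. Rounding to 1 decimal limits every value under 0.5.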

Other observations

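Some carriers of the same families are listed under older names or by identifier only, and were looked up by description after the main values were seen. EAAT1, described as the glial glutamate carrier SLC1A3, had even values of 0.5, 0.5 and 0.7 in libraries 1, 2 and 3 (mean 0.567 ± 0.115, SD, n = 3), above every SLC1 gene listed by its SLC symbol in each library. EAAT3 and EAAT2, described as SLC1A1 and SLC1A2, stood at 0.1 in each library and at 0.1, 0.1 and 0. ENSOARG00000007712, described as the myo-inositol carrier SLC5A3, stood at 0.4, 0.1 and 0.1, ENSOARG00000010284 (SLC38A3, a glutamine carrier) at 0.2 in each library, and ENSOARG00000000739 (SLC6A9, a glycine carrier) was listed at 0 in all 3. None of these 7 rows, SMCT1 (SLC5A8; 0.1, 0 and 0) included, reached a value of 1.

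Outside the 9 families, the sugar carrier SLC50A1 was detected, at 3, 2.8 and 1.6 (mean 2.47 ± 0.76, SD, n = 3), with a value in library 3 where SLC2A1 was listed at 0. The monocarboxylate carrier SLC16A1, which moves lactate, stood at 0.8, 2.2 and 0.3, and BSG, the chaperone that brings it to the surface, at 2.1, 8.4 and 4.4. The phosphate carrier SLC20A1 was among the most even of the detected SLC genes, at 1.3, 1.4 and 1.1, and the bile acid carrier SLC10A1 among the least, at 5.4, 16.3 and 1.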
